A study of Mus musculus with 4 samples.

Results

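The genes described here were 29 genes of cholesterol synthesis and its control, chosen by name from the 40091 genes listed in the files of 4 single-nucleus RNA-seq (snRNA-seq) libraries of mouse thalamus. They were put into 5 role groups: 8 genes that lead from acetyl-CoA through mevalonate to isoprenoids, 11 that lead from squalene to cholesterol, 6 that control SREBP2, 3 that carry cholesterol inside the cell and 1 that removes it. The study compared wild-type (WT) C57BL6 mice, about 7 to 8 weeks old, whose right ventral posterior thalamus (VPM and VPL) received collagenase IV (Coll IV, 0.01 U per 10 nl), the COL group, with mice that received saline, the NS group. Coll IV digests the basement membrane of vessels and is used as a model of thalamic haemorrhage with pain. Tissue was taken on day 7 and each library pooled 3 mice. Both groups therefore carried an injection track, and neither held an uninjured thalamus. The sex of the mice was not given. Each group had 2 libraries, so p-values of the main COL against NS tests measure the spread between 2 pools a group. Contrasts between cell types, and differences of changes between types, came from a joint model of all types with library as a block. That block takes out what the types of a library share, so those p-values measure the spread left within libraries. Fits without a library left a lone pool in its group, which gives no spread of its own between pools.

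The files held 32332 barcodes, of which 32291 nuclei passed the filters, and 68746459 to 77557870 unique molecular identifiers (UMIs, counted RNA molecules) per library. Any pair of libraries shared 8 to 31 barcodes. Nuclei were clustered, and none of the 29 genes was among the 5000 genes used for that, so the cell types did not rest on them. Named from marker genes, the 5 types with enough nuclei in every library were neurons (14962 nuclei), oligodendrocytes (7249), astrocytes (2875), microglia (1580) and oligodendrocyte precursors with committed precursors (OPC, 1344). Each type showed the markers that defined it in all 4 libraries. Cluster 7 detected all 8 oligodendrocyte markers but had Enpp6, a marker of committed precursors, and no oligodendrocyte marker among its 10 leading genes. It was left unnamed: it held 27.9% of its own nuclei plus the oligodendrocytes in NS and 0.0629% in COL. NS and COL nuclei of a glial type lay in different clusters. Cluster 0 held 99.7% of NS and cluster 3 held 99.8% of COL oligodendrocytes, clusters 5 and 13 held 96.2% and 99.3% of astrocytes, clusters 12 and 10 held 98.9% and 77.9% of microglia, and clusters 15 and 11 held 75.1% and 97.9% of OPC.

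Brain cholesterol is made in the brain, because the blood-brain barrier keeps lipoprotein cholesterol out. Astrocytes make much of it in the adult and pass it on, and oligodendrocytes need it for myelin. The pathway builds squalene from mevalonate and closes it into sterol rings. When sterols in the endoplasmic reticulum are low, SCAP escorts the membrane-bound factor SREBP2 to the Golgi, where the proteases of Mbtps1 and Mbtps2 release its active part, which switches on nearly every enzyme of the pathway. When sterols are high, INSIG proteins hold SCAP back. Insig1 is itself a target of SREBP2, so its RNA level rises and falls with the enzymes. Neurons, in turn, dispose of cholesterol with CYP46A1, which hydroxylates it so that it can leave the brain.

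The promoters of 3 genes that were lower in COL astrocytes are printed because SREBP2 and its partner NF-Y are known to act at short words in such promoters. They are Hmgcs1, which makes the substrate of the rate-limiting step, Mvd, whose enzyme makes isopentenyl diphosphate, and Insig1. Motifs were counted in the whole 250 bases before the RefSeq start, while the sequences printed leave out bases that lie inside the annotated gene. The build is GRCm38.p6 (mm10) and capitals mark the sterol regulatory element core (TCACNCCAC) and the NF-Y box (CCAAT), each on either strand. Cyp51 was also lower in COL astrocytes and has a promoter entry, but is not printed. Its NF-Y box lies inside the annotated gene, so its 201 bases outside the gene hold neither word. Hmgcs1 lies at chr13:119690101-119690350 on the plus strand, Mvd at chr8:122443423-122443672 on the minus strand and Insig1 at chr5:28071162-28071362 on the plus strand.
Hmgcs1: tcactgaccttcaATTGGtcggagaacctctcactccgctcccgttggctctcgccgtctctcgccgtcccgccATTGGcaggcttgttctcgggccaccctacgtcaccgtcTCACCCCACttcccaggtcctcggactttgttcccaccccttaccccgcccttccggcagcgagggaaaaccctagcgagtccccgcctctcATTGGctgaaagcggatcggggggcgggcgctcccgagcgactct
Mvd: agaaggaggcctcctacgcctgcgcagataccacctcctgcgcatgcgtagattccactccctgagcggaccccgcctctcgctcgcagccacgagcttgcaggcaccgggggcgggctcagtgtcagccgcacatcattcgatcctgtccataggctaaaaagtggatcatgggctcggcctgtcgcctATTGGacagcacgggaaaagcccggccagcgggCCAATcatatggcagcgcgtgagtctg
Insig1: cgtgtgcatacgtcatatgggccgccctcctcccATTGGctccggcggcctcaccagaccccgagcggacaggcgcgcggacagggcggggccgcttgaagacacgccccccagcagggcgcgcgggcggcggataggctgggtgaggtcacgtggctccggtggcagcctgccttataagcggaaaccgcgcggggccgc
The RefSeq promoter table used here matched 24 of the 29 genes, with 30 promoters, since several genes have more than 1 start. Fdps, Fdft1, Sqle, Stard4 and Npc1 were not matched, so the counts below leave them out. The sterol element core, spelled strictly, was in 1 of the 30, that of Hmgcs1, where its first base lay 137 bases upstream, and in 1.05% of all 32851 promoters of that length. In these windows of 250 bases, part of which lies inside the annotated gene for several genes, the NF-Y box was in 20 of the 30 promoters, which belong to 20 genes, and in 33.85% of all. A Sp1 box (GGGCGG, either strand) was in 23 of the 30 and in 32.74% of all. These matches describe letters in a window, not binding.

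In the saline thalamus, astrocytes held the highest summed level of the 29 genes and oligodendrocytes the next, while the order of microglia, OPC and neurons depended on the scale. As UMIs per 1000000 UMIs of the cell type (CPM), the sum was 1480 and 1560 in the astrocytes of NS replicates 1 and 2, 1180 and 1210 in oligodendrocytes, 1020 and 1060 in microglia, 878 and 842 in OPC, and 817 and 771 in neurons. On this scale the values of neighbouring types in this order did not overlap. After TMM scaling over the 20 sums (5 types by 4 libraries; TMM evens out the composition of the libraries), an alternative added after the data had been seen, the sums in NS were 1420 and 1590 in astrocytes, 1210 and 1340 in oligodendrocytes, 857 and 868 in OPC, 822 and 832 in neurons and 782 and 840 in microglia. Microglia then lay below OPC and overlapped neurons, and with DESeq2 size factors (797 and 865) they overlapped both. After Coll IV, in plain CPM, COL replicates 1 and 2 had 1170 and 940 in astrocytes, 903 and 970 in oligodendrocytes, 779 and 835 in microglia, 639 and 685 in OPC, and 717 and 692 in neurons. The ranges of astrocytes and oligodendrocytes then overlapped, and the lowest type was OPC. After TMM scaling OPC (685 and 690) was again lowest in COL, but microglia (702 and 736) lay below neurons (889 and 742). These sums are descriptions with no test.

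**Figure D1:**
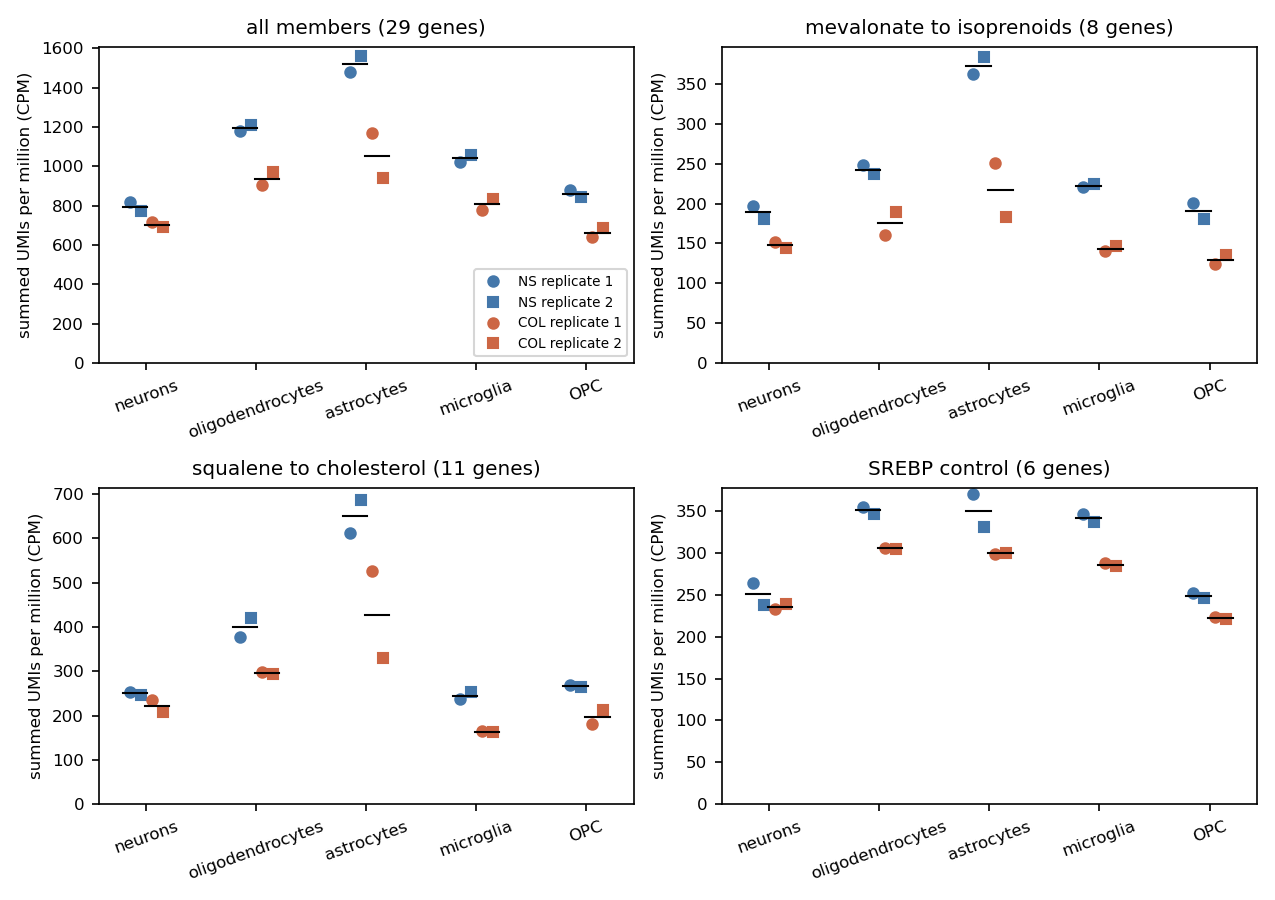
Summed CPM (y axis, UMIs per 1000000 UMIs of that cell type and library) of all 29 genes and of the 3 largest role groups in 5 cell types (x axis). Points are libraries (blue NS, red COL, circle replicate 1, square replicate 2) and bars the mean of 2 libraries; both COL libraries lie below both NS libraries in every panel and type except SREBP control in neurons, and in neurons the gap over all 29 genes is 0 (log2) after TMM scaling.

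Gene by gene, each cell type was compared with the mean of the other 4 in a joint model of 20 sums (edgeR quasi-likelihood, library as a block, Benjamini-Hochberg over 18247 genes, adjusted p under 0.05). In NS astrocytes, 21 of the 29 genes were higher (22.7% of all genes were) and 1 was lower (17.9%). The exception was Npc1, which exports cholesterol from lysosomes, at -0.67 on the log2 scale. Hsd17b7, a sterol ketoreductase, stood highest at 1.97 (SE 0.22, adjusted p = 2.14e-08), with means of 25.9 in astrocytes against 3.76 to 10.1 CPM in the other types (TMM-scaled over all 20 sums, as are all levels in this and the next 2 paragraphs). Mvd followed at 1.89 (SE 0.169), Msmo1, a methylsterol oxidase, at 1.86 (SE 0.0948) and Nsdhl, a sterol dehydrogenase, at 1.78 (SE 0.133). Msmo1 reached 188 ± 29.7 CPM in NS astrocytes (SD, n = 2), against 99 ± 14.2 in oligodendrocytes and 38.3 ± 1.56 in neurons. Of the 8 genes that did not differ or were lower, 5 belonged to SREBP control or removal: Scap, Insig2, Mbtps1, Mbtps2 and Cyp46a1. In COL astrocytes 12 genes were higher (16.5% of all genes) and 2 lower (17.3%), Npc1 and Mbtps1. Without COL replicate 1 the higher genes were 3, a share near that of all genes in that fit (12.8%). Msmo1 had the largest difference in COL, 1.74 (SE 0.114, adjusted p = 8.34e-13). Mvk, Lss, Cyp51 and Dhcr7 were among the genes called higher in NS that were not called here (log2 0.62, 0.39, 0.40 and 0.47). The COL against NS test of these genes is given with the COL against NS changes.

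In NS oligodendrocytes, 15 genes were higher than in the other types (23.4% of all genes) and 1 lower (24.8%), and in COL oligodendrocytes 21 were higher (24.5%) and 1 lower (25.9%), the lower gene being Mbtps2 each time. Without COL replicate 2 the higher genes in COL were 12 (18.1% of all genes in that fit). The largest difference in NS was in Npc1, at 1.05 (SE 0.0968, adjusted p = 4.86e-10), followed by Idi1, an isopentenyl diphosphate isomerase, at 0.94, and Srebf2, which encodes SREBP2, at 0.90 (SE 0.0806, adjusted p = 2.86e-10). In COL it was in Mvk, mevalonate kinase, at 1.27 (SE 0.168, adjusted p = 3.48e-07). Srebf2 measured 166 ± 7.78 CPM in NS oligodendrocytes, 138 ± 4.95 in astrocytes, 92.5 ± 5.37 in neurons, 85.4 ± 6.43 in OPC and 57.3 ± 7.78 in microglia. Neurons and OPC did not separate beyond their spread in that order. In microglia, 16 genes were lower in NS (23.1% of all genes) and 3 higher (19.3%), and in COL 19 were lower (26.6%) and 3 higher (25.4%). Without NS replicate 1 or 2 NS microglia had 8 lower genes (16.2% and 16.4% of all genes in those fits), and without COL replicate 1 COL microglia had 12 (19.3%). Fdft1, squalene synthase, was at -1.39 in NS microglia (SE 0.225, adjusted p = 1.04e-05) and Srebf2 at -1.02 (SE 0.134, adjusted p = 4.19e-07). The higher genes were Ebp, Mbtps2 and Npc2 in NS, and Npc2, Npc1 and Mbtps2 in COL. Npc2, which hands cholesterol to Npc1 in lysosomes, was at 70.2 ± 11.4 CPM in NS microglia and 86.5 ± 19.1 in COL microglia, with 20.5 ± 3.04 in NS neurons.

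Neurons had 12 lower genes (28.8% of all genes) and 3 higher ones (34.6%) in NS, and 7 lower (30.1%) and 8 higher (34.5%) in COL. Without NS replicate 1 or 2, NS neurons had 1 higher gene (27.3% and 28% of all genes), and in COL the 8 higher genes became 5 without COL replicate 1 (29%) and the 7 lower ones 4 without COL replicate 2 (17.2%). Cyp46a1 was above the other types by 0.65 in NS (SE 0.0988, adjusted p = 2.27e-06) and 1.29 in COL (SE 0.101, adjusted p = 1.04e-11), while Npc2 was below them by -1.46 and -1.31. OPC had 1 higher gene (18.5% of all genes), Npc1, and 7 lower ones (10.5%) in NS, and 0 higher (16.1%) and 11 lower (14.3%) in COL. The lower OPC genes became 3 and 1 in NS without NS replicate 1 or 2 (5.32% and 5.31% of all genes). In COL they became 7, 6 and 2 without NS replicate 1, NS replicate 2 and COL replicate 1 (12.6%, 12.6% and 7.64%). Msmo1 and Insig1 were lower in OPC in both groups.

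**Figure D2:**
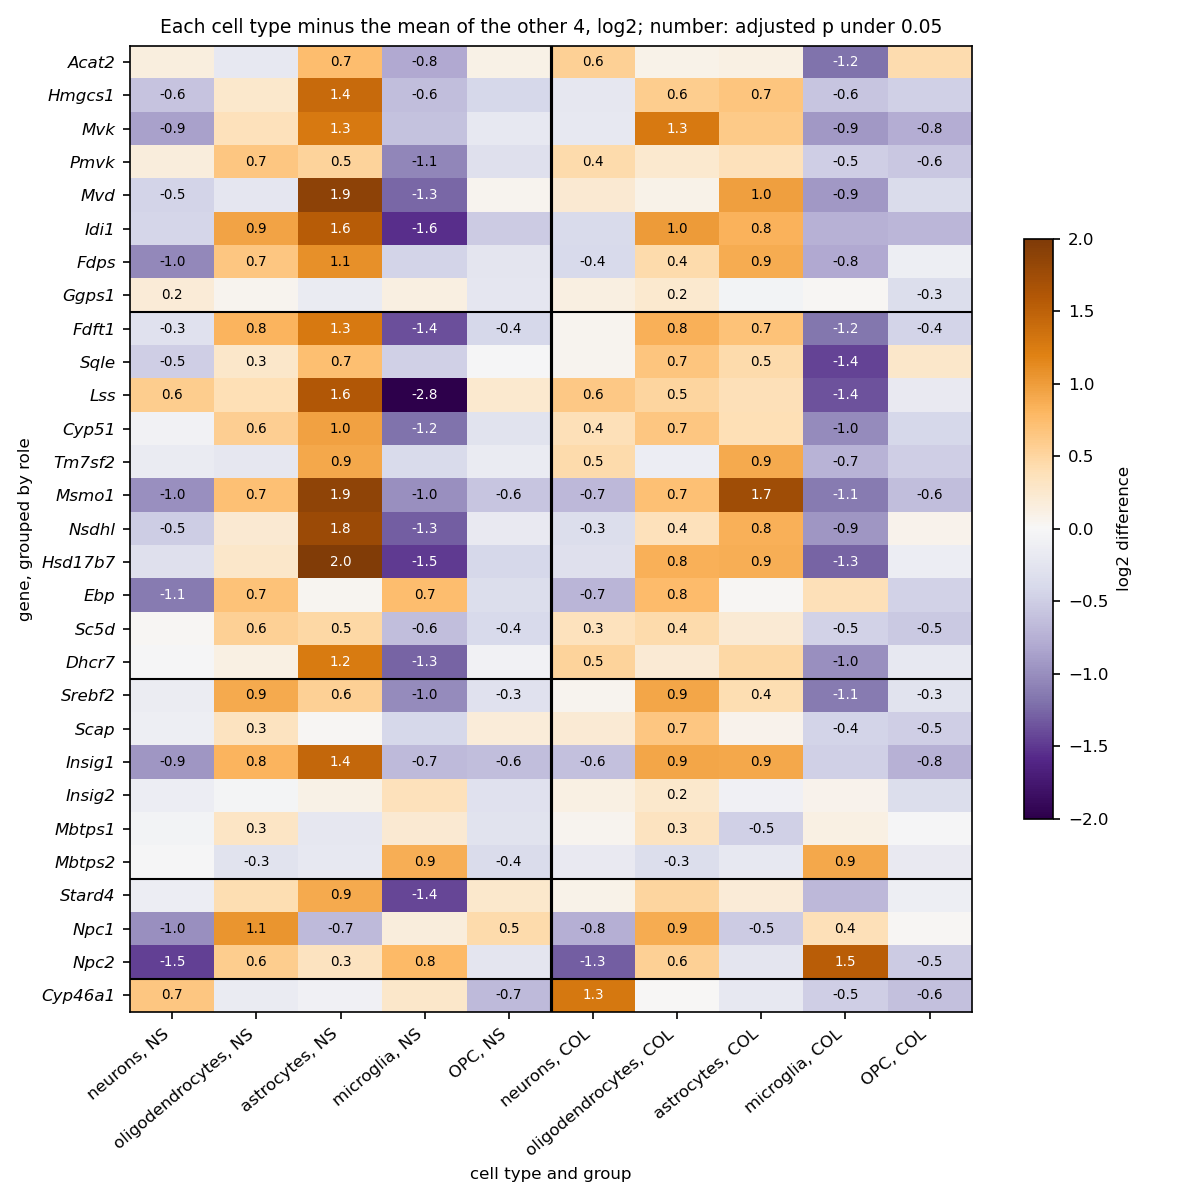
Log2 difference (colour) between each cell type and the mean of the other 4, for the 29 genes (rows, grouped by role) in NS and in COL (columns). A printed value marks an adjusted p under 0.05; the NS astrocyte, COL oligodendrocyte and COL microglia columns hold 22 printed values each, nearly all higher in the first pair and nearly all lower in microglia.

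The comparison of COL with NS within a cell type asked how the injury bore on these genes (edgeR quasi-likelihood on the 4 sums of a type, Benjamini-Hochberg over all genes tested in it, adjusted p under 0.05). No gene of the 29 was called higher in COL in any cell type. In astrocytes 7 were lower (8.5% of 14776 genes were lower, 9.02% higher), in oligodendrocytes 4 (12.8% of 16588 lower, 10.4% higher), in microglia 4 of the 22 that passed the filter on low counts (14.3% of 11948 lower, 14% higher), in OPC 3 (10.4% of 13388 lower, 8.24% higher) and in neurons 0 (0% of 23742 lower, 0% higher). Read against these shares, the count stood above the background in astrocytes and near it in oligodendrocytes, microglia and OPC. The medians of the log2 changes were -0.59 in astrocytes, -0.48 in microglia, -0.43 in OPC, -0.35 in oligodendrocytes and 0.08 in neurons, where those of all genes lay between -0.02 and 0.016. The 7 genes that did not pass the filter in microglia were Mvk, Mvd, Idi1, Lss, Tm7sf2, Hsd17b7 and Stard4, with 2 to 21 UMIs per library. All 29 passed it in the other types.

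**Figure D3:**
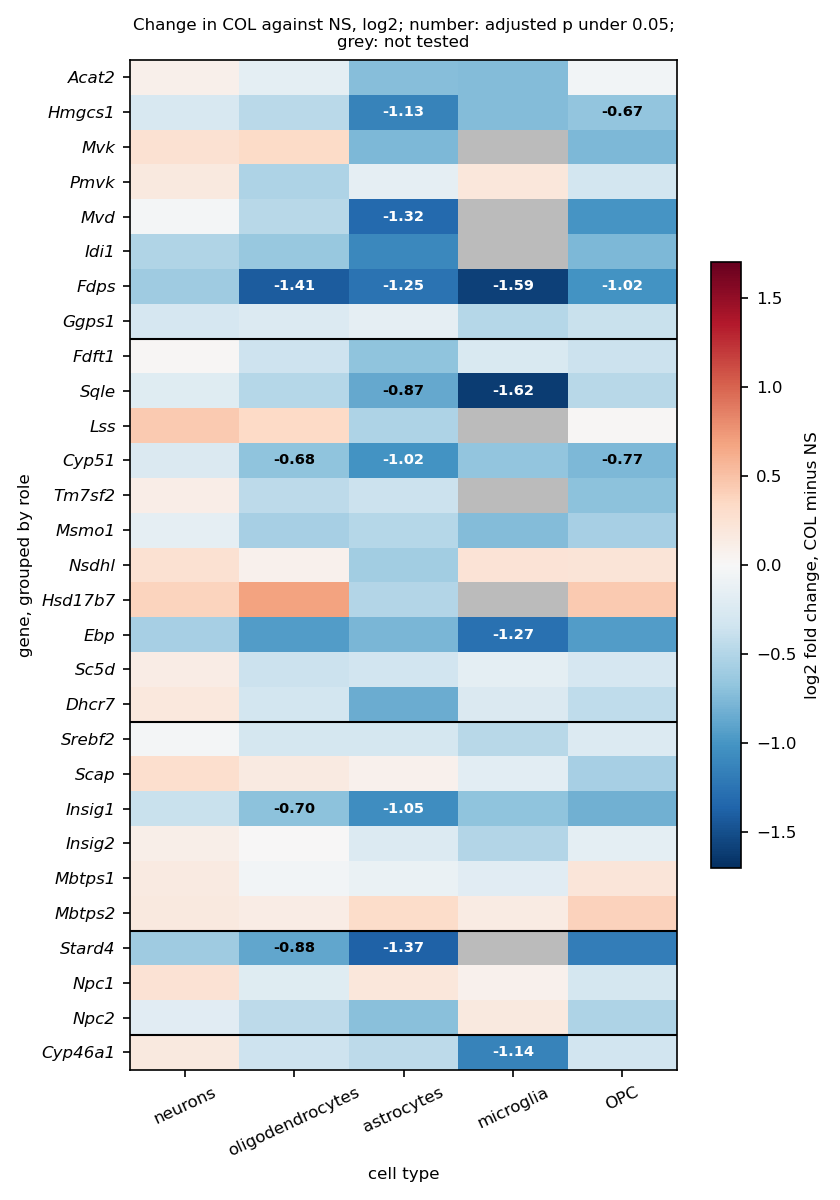
Log2 change of the 29 genes (rows, grouped by role) in COL against NS in 5 cell types (columns), blue for lower and red for higher in COL. Values are printed where the adjusted p was under 0.05 and grey marks genes not tested; Fdps carries a value in the 4 glial types and no red cell carries one.

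Fdps, which makes farnesyl diphosphate, the branch point to sterols and other isoprenoids, was called lower in COL in all 4 glial types with all libraries. TMM-scaled within the cell type, as in all per-library values from here on, its oligodendrocyte levels were 25.9, 30.7, 8.9 and 12.3 CPM, in the order NS replicate 1, NS replicate 2, COL replicate 1, COL replicate 2 that is kept below, and it fell by 1.41 on the log2 scale (SE 0.236, adjusted p = 0.00813). In astrocytes they were 32.9, 47.1, 18.1 and 15.7, a fall by 1.25 (SE 0.268, adjusted p = 0.0138). In microglia they were 20, 22.9, 4.27 and 9.09, a fall by 1.59 (SE 0.457, adjusted p = 0.0213, on 15, 16, 7 and 24 UMIs). In OPC they were 18.8, 17.9, 9.9 and 8.38, a fall by 1.02 (SE 0.33, adjusted p = 0.0465). Of 15 alternatives the OPC call was lost in 9 (log2 change -1.78 to -0.88, adjusted p up to 0.327) and the microglial call in 4, among them DESeq2 for both. In astrocytes it was lost in 1, without NS replicate 2, and in oligodendrocytes in none. Both COL libraries were below both NS libraries in each of the 4. In neurons the libraries did not overlap either, at 9.56, 12.2, 7.48 and 6.76, with a log2 change of -0.61 that did not pass the test (SE 0.206, adjusted p = 0.141). Short predicted genes, Gm43738 and Gm22935, overlap Fdps on its strand.

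With all 4 libraries, astrocytes had the most genes called, an order that did not hold without NS replicate 2 or COL replicate 2. In the mevalonate group Hmgcs1, with 129, 157, 86.1 and 46.6 CPM, fell by 1.13 (SE 0.257, adjusted p = 0.0169). Mvd, with 30.7, 31.8, 16.7 and 9.23, fell by 1.32 (SE 0.297, adjusted p = 0.0164). The 8 genes of this group all had a log2 change below 0, from -1.32 to -0.15, and 7 had both COL libraries below both NS libraries, as 32.4% of all genes tested in astrocytes did. The exception, Pmvk, had 28.5, 26.2, 29.9 and 20.3 CPM. Among the 11 genes from squalene to cholesterol, Sqle, squalene epoxidase, had 42.2, 58.5, 29.9 and 25.4 CPM and fell by 0.87 (SE 0.237, adjusted p = 0.0328). Cyp51, the lanosterol demethylase, had 76.1, 101, 53.5 and 35.1 and fell by 1.02 (SE 0.238, adjusted p = 0.019). The other 9 of that group had log2 changes between -0.84 and -0.32, of which Dhcr7, a reductase at the end of the pathway, came nearest to the threshold with 40.8, 43.2, 30.6 and 17.5 CPM (adjusted p = 0.0541). Msmo1 had 169, 215, 181 and 97.8 CPM, so its groups overlapped.

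The control genes of astrocytes did not move together. Insig1 had 62.4, 49.3, 32 and 23.1 CPM and fell by 1.05 (SE 0.234, adjusted p = 0.0157), with both COL libraries below both NS libraries. Srebf2 had 135, 145, 113 and 115 (log2 change -0.30, adjusted p = 0.217), and Scap 41.8, 44.6, 37.5 and 51.7 (0.07, adjusted p = 0.862). Mbtps2 was the only gene of the 29 in astrocytes whose COL libraries both lay above NS, at 45.6, 33.7, 53.5 and 46.2 CPM (0.31, adjusted p = 0.35). In transport, Stard4, a soluble sterol carrier, had 15.1, 21.2, 7.64 and 6.46 CPM and fell by 1.37 (SE 0.341, adjusted p = 0.0241), on 11 and 14 UMIs in COL. Npc1 had 42, 48.5, 47.2 and 55.4 (0.19, adjusted p = 0.526). The lower count in astrocytes depended on the libraries: it was 5 without NS replicate 1 (4.23% of all genes were lower in that fit), 0 without NS replicate 2 (when edgeR called no gene at all, 2856 having an unadjusted p under 0.05), 12 without COL replicate 1 (4.01%) and 4 without COL replicate 2 (8.32%). COL held 251 and 324 astrocyte nuclei against 1211 and 1089 in NS. At a clustering resolution of 1.2, 100 and 101 of these COL nuclei and 43 and 32 of the NS nuclei fell in a cluster (24) that detected 4 of the 8 astrocyte markers and had none among its 10 leading genes. Without them, an alternative chosen after the data had been seen, 6 genes were lower (1031 of 13832 genes), and Stard4 was no longer called (log2 change -1.02, adjusted p = 0.0985).

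In oligodendrocytes the genes called lower besides Fdps were Cyp51, Insig1 and Stard4. Cyp51 had 57.2, 72.6, 36.9 and 44 CPM and fell by 0.68 (SE 0.187, adjusted p = 0.0344). Insig1 had 33.8, 38.7, 22.1 and 22.6 and fell by 0.70 (SE 0.182, adjusted p = 0.0289). Stard4 had 14, 11.2, 6.26 and 7.3 and fell by 0.88 (SE 0.266, adjusted p = 0.0465). In all 3 the COL libraries lay below the NS libraries. Hsd17b7 leaned the other way, with 10.4, 8.4, 16.5 and 13.5 CPM (log2 change 0.68, adjusted p = 0.0816), as did Mvk with 11.8, 12, 15.2 and 14.6 (0.32, adjusted p = 0.311). With cluster 7 added to the oligodendrocytes, 12.5% of 17146 genes were lower. Fdps, Cyp51 and Sqle (log2 change -0.63, adjusted p = 0.0401) were called there. Insig1 (-0.57, adjusted p = 0.0535) and Stard4 (-0.83, adjusted p = 0.0507) were not. The lower count was 2 without NS replicate 1 (9.04% of all genes were lower in that fit), 1 without NS replicate 2 (6.64%), 4 without COL replicate 1 (10.2%) and 10 without COL replicate 2 (21.3%), and with cluster 7 added to the oligodendrocytes, an alternative chosen after the data had been seen, it was 3.

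In microglia Sqle, Ebp and Cyp46a1 were lower besides Fdps. Sqle had 32.1, 32.9, 10.4 and 10.6 CPM and fell by 1.62 (SE 0.345, adjusted p = 0.00455). Ebp, a sterol isomerase, had 21.4, 35.7, 6.71 and 15.5 and fell by 1.27 (SE 0.443, adjusted p = 0.0489). Both groups stood apart in each. Cyp46a1 had 34.7, 54.3, 23.8 and 17 and fell by 1.14 (SE 0.328, adjusted p = 0.0213). Since Cyp46a1 is known from neurons, the 8 neuron markers in the same microglial sums are given beside it: they totalled 1520, 1260, 1790 and 1510 CPM, and their part in its level was not tested. In the same sums the 8 microglia markers went from 7250 and 7380 in NS to 5090 and 5170 CPM in COL, with none of the 8 higher, and the 8 astrocyte markers from 641 and 565 to 291 and 290. Their part in the lower microglial values was not tested. The transport genes tested were not called: Npc1 had 86.8, 94.3, 79.9 and 108 CPM, and Npc2 80.1, 101, 84.8 and 117. The lower count was 2, 1, 3 and 5 without NS replicate 1, NS replicate 2, COL replicate 1 and COL replicate 2, where 5.18%, 8.26%, 12% and 16.8% of all genes were lower. COL microglia included the dividing cluster 22. Without it, in an alternative chosen after the data had been seen, the count was 2 (1398 of 10977 genes were lower). Ebp (log2 change -1.29, adjusted p = 0.0697) and Cyp46a1 (-0.97, adjusted p = 0.0583) were not called there. With DESeq2 the count was 1 (809 of 11948 genes), Sqle.

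OPC had Hmgcs1 and Cyp51 lower beside Fdps. Hmgcs1 had 53.2, 47.7, 29.7 and 33.2 CPM and fell by 0.67 (SE 0.203, adjusted p = 0.0346). Cyp51 had 39.8, 47.2, 20.4 and 29.3 and fell by 0.77 (SE 0.24, adjusted p = 0.0397). Neither gene overlapped between the groups. Stard4 came next, with 13.9, 10.4, 4.95 and 5.72 CPM (log2 change -1.17, adjusted p = 0.0621). The count of 3 became 0 without NS replicate 1 or 2 (2.15% and 3.15% of all genes were lower), 1 without COL replicate 1 (7.06%) and 3 without COL replicate 2 (14%). In cluster 11 alone, an alternative chosen after the data had been seen, 4 genes were lower (1195 of 11203 genes): Hmgcs1 (log2 change -1.06, adjusted p = 0.00711), Mvd (-1.57, adjusted p = 0.0394), Msmo1 (-1.01, adjusted p = 0.00867) and Stard4 (-1.53, adjusted p = 0.0356). Fdps (-1.18, adjusted p = 0.0553) and Cyp51 (-0.87, adjusted p = 0.0575) were not called there, with changes at least as large as in all OPC.

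**Figure D4:**
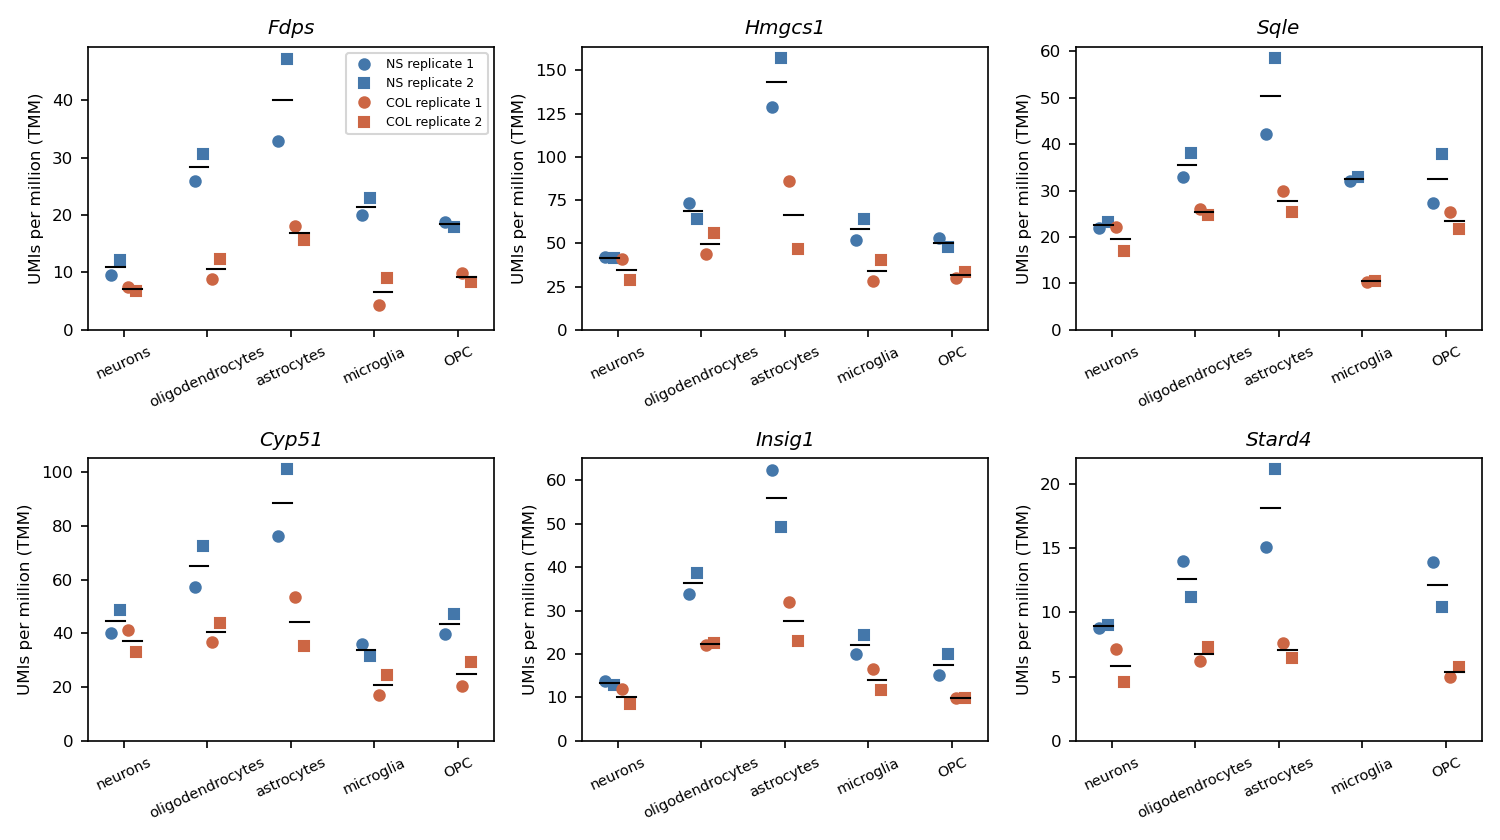
Level (y axis, UMIs per 1000000, TMM-scaled within each cell type) of 6 genes in 5 cell types (x axis) for each library (blue NS, red COL, circle replicate 1, square replicate 2), with bars at the mean of 2 libraries. Fdps is lower in both COL libraries in every type; Stard4 in microglia was not tested and is not drawn.

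Counted without a test, both COL libraries were below both NS libraries for 21 of 29 genes in astrocytes (32.4% of all genes tested there), 18 of 29 in OPC (32.6%), 16 of 29 in oligodendrocytes (36%), 13 of 22 in microglia (33.8%) and 7 of 29 in neurons (32.8%). Fdps, Hmgcs1, Insig1 and Ggps1, the geranylgeranyl diphosphate synthase, were in that state in all 5 cell types. The share of all genes in that state in all 5 types was not computed, so how common it is remains unknown. The 5 types come from the same 4 libraries, so their states are not independent. In neurons, with all 4 libraries, edgeR called 0 genes in either direction over all genes, where 6670 of 23742 had an unadjusted p under 0.05. DESeq2 called 773 higher and 1706 lower with none of the 29 among them. The edgeR result depended on the COL libraries: without COL replicate 1 or COL replicate 2 it called genes in both directions. Without COL replicate 2 a gene of the 29 was among the lower ones. The median change of the 29 was -0.07 and 0.12 in these fits. Among the 29, Fdps and Ggps1 had an unadjusted p under 0.05 in neurons. Ggps1 had 69.1, 68.5, 57.6 and 54.8 CPM (log2 change -0.29, adjusted p = 0.176), and Hmgcs1 42.3, 41.3, 40.9 and 28.6 (-0.27, adjusted p = 0.394). The neuron types themselves differed between the libraries: 5 of 10 neuron clusters had at least 20 nuclei in every library. In those clusters, an alternative chosen after the data had been seen, the median change of the 29 genes was -0.18 and none was called.

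The 5 role groups changed by unequal amounts, described here as the log2 ratio of mean summed CPM, COL to NS, with no test. The mevalonate genes had the lowest ratio of the 3 largest groups in every type: -0.78 in astrocytes, -0.63 in microglia, -0.56 in OPC, -0.47 in oligodendrocytes and -0.35 in neurons, where it was -0.18 after TMM scaling. From squalene to cholesterol it was -0.60, -0.58, -0.43, -0.43 and -0.17 in the same order, the neuronal value being 0 after TMM scaling. SREBP control moved least of the 3, at -0.23, -0.26, -0.16, -0.20 and -0.09, the neuronal value turning to 0.08 after TMM scaling. Transport was at 0.05 in microglia and between -0.47 and -0.14 elsewhere. Removal, which is Cyp46a1 alone, had the lowest ratio of any group and type in microglia, -1.16, with 35 and 52.9 CPM in NS and 22.7 and 16.6 in COL. It was at 0 in neurons (0.17 after TMM scaling), -0.45 in astrocytes, -0.40 in oligodendrocytes and -0.32 in OPC. The scale mattered in neurons: after TMM scaling the ratio over all 29 genes was 0 there instead of -0.17, whereas it stayed at -0.53 in astrocytes, and was -0.31 in oligodendrocytes, -0.33 in microglia and -0.35 in OPC.

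Whether a glial change differed from the neuronal one was tested in the joint model as the difference of the changes. It did for 10 genes in astrocytes, all more negative (3.41% of 18247 genes were, and 3.95% more positive). The count was 4 with DESeq2 (406 of 18247 genes were more negative) and 2 with a marker gate per nucleus (201 of 18437). It was 3 in the narrower clusters (434 of 18049), an alternative chosen after the data had been seen. These were the neuron clusters shared by all libraries, astrocytes without cluster 24, microglia without cluster 22 and OPC of cluster 11. In the narrower clusters Hmgcs1 (-0.88, adjusted p = 0.0387) and Dhcr7 (-0.96, adjusted p = 0.0436) kept their call and Sc5d gained one. Mvd (-1.01, adjusted p = 0.0591), Acat2 (-0.83), Lss (-0.77), Sqle (-0.65) and Cyp51 (-0.55) lost it. Mvk (-0.30, adjusted p = 0.691), Fdft1 (-0.39, adjusted p = 0.337) and Nsdhl (-0.11, adjusted p = 0.853) lost it with much smaller differences than the -1.06, -0.74 and -0.88 of the main clusters. Of the 10, 4 came from the mevalonate group (Acat2, Hmgcs1, Mvk and Mvd) and 6 from the squalene group (Fdft1, Sqle, Lss, Cyp51, Nsdhl and Dhcr7), and none from control, transport or removal. Mvd had the largest difference, -1.28 (SE 0.293, adjusted p = 0.00626): its neurons had 7.43, 7.8, 9.43 and 5.47 CPM. Lss, at -1.01 (SE 0.267, adjusted p = 0.0183), leaned opposite ways, with 13, 12.8, 20.3 and 14.9 CPM in neurons and 24, 27.3, 23.6 and 12.9 in astrocytes. In oligodendrocytes Pmvk and Fdps were more negative than in neurons (3.68% of genes, with 0 of the 29 more positive against 7.46%). In microglia Sqle and Cyp46a1 were (4.59%, with 0 more positive against 6.76%), and in OPC none (0 more negative against 1.25%, 0 more positive against 1.52%). Insig1 and Stard4, lower in astrocytes, were not shown to differ from neurons (adjusted p = 0.0608 and 0.284), nor was Fdps in astrocytes (-0.67, adjusted p = 0.116). Without NS replicate 2 none of the 29 passed this test in any glial type. Without NS replicate 1, COL replicate 1 and COL replicate 2 the count of more negative genes was 4, 8 and 3 in astrocytes (1.23%, 1.62% and 3.01% of all genes), 1, 1 and 2 in microglia (1.72%, 3.16% and 2.76%), and 1, 0 and 4 in oligodendrocytes (2.37%, 2.75% and 3.39%).

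**Figure D5:**
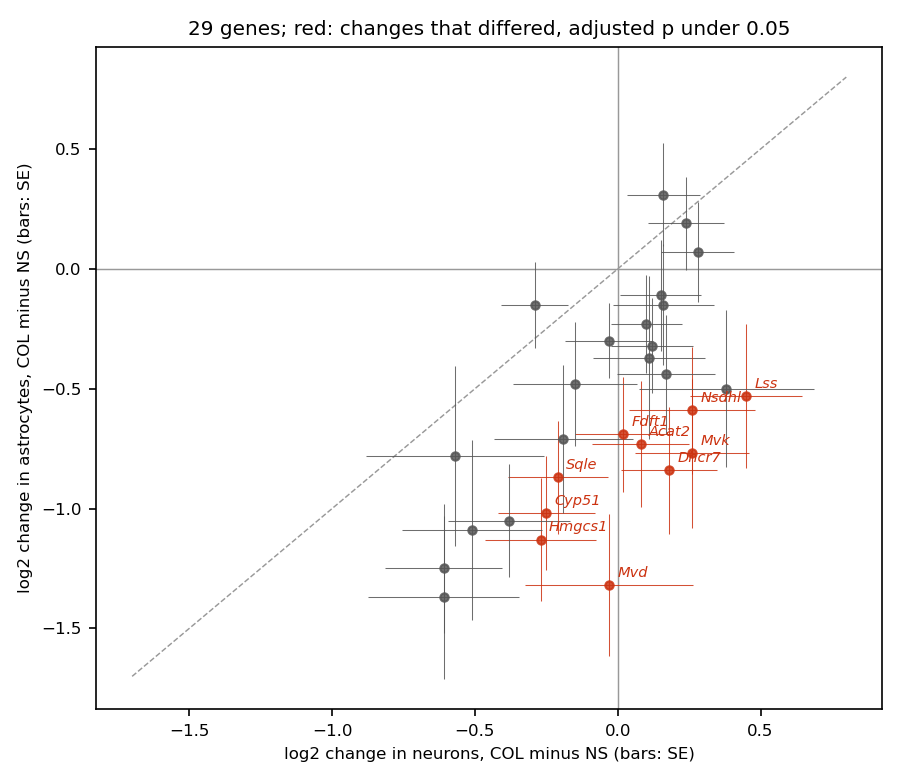
Log2 change in COL against NS of the 29 genes in neurons (x axis) and astrocytes (y axis), each from its own fit, with bars of 1 SE and a dashed line of equal change. Red marks the 10 genes whose changes differed in the joint model (adjusted p under 0.05), which all lie below the line.

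Several other measures moved with the groups in the same sums, and their part in these results was not tested. The 84 ribosomal protein genes were lower in both COL libraries in every type, from 4070 and 4330 to 1450 and 2680 CPM in astrocytes and from 5120 and 5230 to 1050 and 2560 in oligodendrocytes, with COL replicate 1 the lowest throughout. That library also had the lowest median mitochondrial share, 0.07% against 0.128 to 0.189%, and the lowest level of Ebp in every type. Within types, the sum of the 37 mitochondrial genes was higher in both COL libraries in astrocytes (2360 and 2060 to 2660 and 3940 CPM) and microglia (2350 and 2330 to 2980 and 4950). Taken singly, 8 and 11 of the 37 were higher in both COL libraries there. The sum overlapped between the groups in the other 3 types. The sum of the 7 macrophage markers was higher in COL in every type. It went from 7.91 and 13.8 to 68.9 and 125 CPM in astrocytes and from 6.73 and 78 to 234 and 400 in microglia. Of the 7, 6 were higher in both COL libraries in each of these types, and 5 in each of the others. Neuron markers summed to 1230 and 1220 in NS and 1740 and 1460 in COL astrocytes, and to more in COL in oligodendrocytes and OPC too. Of the 8, 4, 5 and 3 were higher in both COL libraries in these types. In OPC the oligodendrocyte markers went from 2890 and 3120 to 1570 and 2360 CPM. The OPC markers there went from 8740 and 8910 to 12700 and 12100, with 3 of the 6 higher in both COL libraries. In oligodendrocytes the OPC markers went from 182 and 160 to 537 and 514, with 3 of the 6 higher. Those of committed precursors went from 199 and 191 to 406 and 390, with 2 of the 5 higher. The 8 astrocyte markers themselves were lower in COL astrocytes, 9180 and 8340 against 6810 and 7590 CPM, and none of the 8 was higher. The same markers were lower in both COL libraries in the other types too, from 641 and 565 to 291 and 290 CPM in microglia, from 449 and 376 to 230 and 259 in oligodendrocytes, from 1020 and 943 to 696 and 784 in OPC and from 370 and 357 to 349 and 243 in neurons. COL nuclei held more UMIs, for example 5860 and 6700 a nucleus in astrocytes against 3970 and 3460. CPM levels are shares of nuclear RNA, so a lower share and more RNA of other genes cannot be told apart.

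Summed over all nuclei of a library, as bulk tissue would be, 1 of the 29 genes was lower in COL (4.43% of 25570 genes) and 0 higher (5.02%). That gene was Fdps, with 13.1, 17.3, 8.03 and 7.9 CPM and a fall by 0.93 (SE 0.202, adjusted p = 0.0418). Fewer nuclei of a type and less RNA per nucleus cannot be told apart in these sums. The call was lost without NS replicate 2 and without COL replicate 1. The median change of the 29 was -0.08. The COL libraries also held macrophages, 319 and 473 nuclei against 3 and 5 in NS, so no comparison was possible there. In them the 29 genes summed to 1060 and 1010 CPM in COL replicates 1 and 2, of which transport made up 443 and 414, with Npc1 at 214 and 176 and Npc2 at 222 and 232. That transport sum was above the 162 and 224 of microglia in the same libraries.

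A pair of gene lists set beside the pathway gave its neighbours. Of 14 genes of fatty acid synthesis and its control, 4 were lower and 0 higher in astrocytes (median log2 change -0.43). They were Acss2, which activates acetate, Scd2, which desaturates fatty acids, and Fads1 and Fads2, which desaturate polyunsaturated ones. Acss2 had 219, 238, 125 and 92.8 CPM and fell by 1.08 (adjusted p = 0.00517), and Scd2 had 576, 721, 214 and 392 and fell by 1.09 (adjusted p = 0.0183). Both COL libraries were below both NS libraries in each. In microglia 3 were lower (Scd2, Fads2, Mlxipl) and 2 higher (Acaca, Me1), with a median of -0.03. In oligodendrocytes 3 were lower (Scd1, Fads1, Fads2) and 4 higher (Acaca, Elovl5, Me1, Mlxipl), with a median of -0.06. Of those 4, Me1 alone was called with the marker gate, and Me1 and Mlxipl at resolution 1.2 or with cluster 7 added. Fads1 was not called at resolution 1.2. In microglia Me1 was not called with doublets removed, nor Fads2 in the narrower clusters. The astrocyte count was 2 (Acss2, Scd2) without NS replicate 1, 0 without NS replicate 2, 3 in the narrower clusters and 4 or 5 under the other alternatives. With DESeq2 Acaca was the gene of the list called in microglia. In OPC Scd1 and Scd2 of 13 tested were lower. In neurons, with all libraries, edgeR called 0 of 14 in either direction and DESeq2 Scd1 lower and Mlxipl higher. Without COL replicate 1 or COL replicate 2 edgeR did call genes of this list in neurons. Both OPC calls were lost with DESeq2 and without NS replicate 1 or 2. Acaca, acetyl-CoA carboxylase, rose in microglia from 86.8 and 64.3 to 170 and 162 CPM (log2 change 1.13, adjusted p = 0.00136). Of 19 genes of isoprenoid branches and sterol-regulated turnover, 18 were tested in astrocytes and 17 in the other types. Oligodendrocytes had 1 lower (Coq2) and 3 higher (Pdss1, Pdss2, Fntb), microglia 1 lower (Coq2) and 1 higher (Pdss1), and the other 3 types 0. The 3 higher calls in oligodendrocytes were lost with the marker gate, at resolution 1.2 and with cluster 7 added. With DESeq2 Fntb alone of these 3 was called, and both microglial calls were lost. Coq2, which joins the ubiquinone ring to its isoprenoid tail, had 52.1, 53.5, 29 and 34 CPM in oligodendrocytes and fell by 0.74 (adjusted p = 0.0205). It was not called there without NS replicate 1 or 2, when no gene of this list was. The background shares given above for each cell type apply to these lists too.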

How the data were processed

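For 4 10x libraries (2 NS, 2 COL) the authors deposited tables of UMI counts, 1 row a gene and 1 column a nucleus, made per the labels with Cell Ranger 1.2.0 on mm10. Whether intronic reads were counted, and whether doublets or free RNA were removed, is not given in the sources used here. Nuclei with more than 50 genes and under 5% mitochondrial UMIs were kept (32291 of 32332) and clustered with Seurat 5.3.0 (5000 variable genes, 15 components, resolution 0.8). Clusters were named from marker lists. Clusters that also scored at least 0.4 on the markers of another cell lineage, and cluster 7, were left out of the 5 types. No doublet caller was run, and 745 nuclei (2.31%) with markers of another type were removed in an alternative.

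UMIs were summed per library and cell type (libraries held 68746459 to 77557870 UMIs) and tested with edgeR 4.0.16 in R 4.3.3 (quasi-likelihood, TMM, filterByExpr, two-sided, Benjamini-Hochberg over all genes tested). A joint model over 20 sums with library as a block gave the cell type contrasts and the differences of changes from neurons. Scripts were tested on simulated data. Alternatives were DESeq2 1.42.0, its size factors, no filter on low counts, other nuclei or clusters, a replicate block and leaving out each library. A lone library left in a group is assumed to vary like the other group. The 29 genes, the role groups and the lists were chosen with earlier results of these data known. Members were described where they passed a test or are the best known step of their role group, and list genes were named where they passed. Members near the threshold or with overlapping groups were added after their values were seen.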

Additional observations from a re-analysis of the deposited data

Results flagged for a closer look

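The change in COL against NS differed between a glial type and neurons for 14 gene and type pairs in the joint model (edgeR quasi-likelihood, adjusted p under 0.05), each given as the glial minus the neuronal log2 change. In astrocytes, where 3.41% of 18247 genes were more negative than in neurons, the mevalonate group came first. The difference was -0.84 for Acat2, -0.91 for Hmgcs1, -1.06 for Mvk and -1.28 for Mvd. In the squalene group it was -0.74 for Fdft1, -0.66 for Sqle, -1.01 for Lss, -0.81 for Cyp51, -0.88 for Nsdhl and -1.07 for Dhcr7. In oligodendrocytes it was -0.55 for Pmvk and -0.67 for Fdps (3.68% of all genes were more negative). In microglia it was -1.21 for Sqle and -1.13 for Cyp46a1 (4.59% of all genes). The 2 genes in each of these types stood near those shares. With DESeq2 the count was 4 in astrocytes (406 of 18247 genes), 0 in oligodendrocytes (603) and 2 in microglia (787). In the narrower clusters most pairs were not called, and several were smaller. In astrocytes Mvk was at -0.30 (adjusted p = 0.691), Fdft1 at -0.39 (adjusted p = 0.337) and Nsdhl at -0.11 (adjusted p = 0.853). In microglia Cyp46a1 was at -0.63 (adjusted p = 0.173). Hmgcs1 and Dhcr7 in astrocytes, Fdps in oligodendrocytes and Sqle in microglia kept their call there. The other pairs lost it, among them Pmvk in oligodendrocytes (-0.39, adjusted p = 0.167). Without NS replicate 2 none of the 14 passed the test.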

How the results depend on the processing

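Across the alternatives run, no called value turned its direction. Of the values of members called in COL against NS, 199 of 276 kept their call and 77 lost it, of those for cell types 1113 of 1312 and 199, and of those for the change against neurons 48 of 112 and 64. Fdps in oligodendrocytes and Sqle in microglia were called under every alternative run, leaving out each library included.

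With DESeq2 the members lower in COL were 1 in oligodendrocytes (9.74% of all genes were lower) and 1 in microglia (6.77%). They were 0 in OPC (3.88%, 1 member having an unadjusted p under 0.05) and 3 over all nuclei (2609 of 25570 genes). In COL OPC 7 members were lower than in the other types (2179 of 18247 genes). Against neurons, 0 differed in oligodendrocytes (603 genes more negative, 889 more positive). In astrocytes 4 were more negative than in neurons (406 genes). With no filter on low counts 13 were lower in astrocytes (7.06% of all genes) and 1 was higher in oligodendrocytes (8.55%). Then 1 in oligodendrocytes and 1 in OPC were more negative than in neurons (678 and 478 of 39665 genes). With a marker gate per nucleus OPC had 1 lower (10.8% of all genes) and a log2 ratio of summed CPM of -0.29. Against neurons, 0 differed in oligodendrocytes (326 of 18437 genes more negative, 1211 more positive) and 2 were more negative in astrocytes (201 genes). In microglia 2 were more negative (683 genes) and 1 more positive (1569 genes) than in neurons. At resolution 1.2 OPC had 1 lower of 22 tested (9.5% of all genes) and a ratio of -0.21, and oligodendrocytes 1 higher (10.3%). The OPC there were clusters 17 (2 and 6 COL nuclei) and 36 (27 and 33), against 210 and 303 COL nuclei in the main setting. Cluster 19 of that resolution, with 179 and 264 COL nuclei, was named mixed. Its cluster 13, with 310 and 418 COL nuclei, was unnamed. With doublets removed OPC had 1 lower (9.57% of all genes). In narrower clusters microglia had 2 lower (12.7% of all genes). In NS OPC 2 members differed from the other types, Npc1 higher (2548 of 18049 genes) and Cyp46a1 lower (1240). Against neurons, 4 differed in oligodendrocytes: Fdps, Sc5d and Npc1 were more negative (1485 genes) and Hsd17b7 more positive (1669). More negative than in neurons were 3 in astrocytes (434 genes), 1 in microglia (Sqle, 685) and 1 in OPC (Scap, 824). The ratio in these clusters was -0.11 in neurons and -0.51 in OPC. The ratio was 0 in neurons with TMM or DESeq2 size factor scaling, and -0.29 in oligodendrocytes with the latter.

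Leaving out each library gave median log2 changes of the members tested of -0.07 to 0.12 in neurons, -0.39 to -0.23 in oligodendrocytes and -0.97 to -0.39 in astrocytes. They were -0.56 to -0.34 in microglia, -0.42 to -0.36 in OPC and -0.24 to -0.02 over all nuclei. The ratio in astrocytes was -0.69 to -0.38. The counts of members in the rest of this paragraph are not set against the shares of all genes called in the same fits. Several of those shares are given with the cell types above. These counts alone therefore do not show that members differed more often than other genes. Members that differed from the other types were 9 to 16 in NS neurons, 12 to 23 in COL oligodendrocytes, 5 to 14 in COL astrocytes, 10 to 21 in NS microglia, 2 to 9 in NS OPC and 2 to 8 in COL OPC. Those that differed from neurons were 0 to 4 in oligodendrocytes, 0 to 8 in astrocytes and 0 to 2 in microglia.

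Replicate numbers 1 and 2 recur in both groups but name different mice. Nothing in the sources used here ties pools of a number, so the numbers were not read as pairs. The correlation of same-numbered deviations was -0.004 in neurons and 0.093 to 0.154 in the 4 glial types. Whether pools of a number shared a preparation was not tested. With the replicate block the lower members were 0 in neurons (2.54% of all genes were lower), 6 in oligodendrocytes (17.9%) and 12 in astrocytes (13.1%). They were 5 in microglia (16.4%), 4 in OPC (13.8%) and 2 over all nuclei (3484 of 25570 genes). With the numbers crossed, an alternative added after the data had been seen, the lower members were 1 in oligodendrocytes (9.49% of all genes) and 10 in astrocytes (7.85%). They were 3 in microglia (13%) and 0 in OPC (8.34%).

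Over all genes, higher and lower calls were 1333 and 1256 in astrocytes but 804 and 648 with DESeq2 and 781 and 1031 in the narrower clusters (without cluster 24), 1673 and 1706 in microglia but 898 and 809, 1103 and 1398 in OPC but 504 and 520, and 1284 and 1132 over all nuclei but 1924 and 2609 with DESeq2 and 2079 and 3484 with the replicate block. In neurons 0 and 0 became 207 and 602 with the block, 117 and 36 with no filter and 231 and 17 with the marker gate. Without COL replicate 1 or COL replicate 2 edgeR also called neuronal genes in both directions. With no filter the higher and lower calls were 2601 and 2746 in oligodendrocytes, against 1720 and 2125. For the change against neurons, more positive and more negative genes were 721 and 623 in astrocytes but 612 and 406 with DESeq2 and 624 and 201 with the marker gate, 1361 and 672 in oligodendrocytes but 1669 and 1485 in the narrower clusters and 1211 and 326 with the marker gate, and 277 and 228 in OPC but 821 and 824 in the narrower clusters. Causes were not tested. Low counts in microglia and COL astrocytes limit what could be detected there.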
